A study of Bos taurus and Bos indicus with 3 samples.

Results

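Heat shock proteins and chaperones were described in leukocyte mRNA of cattle as a set of 41 named genes: small heat shock proteins, HSP40, HSP60 and CCT, HSP70, HSP90, and heat shock factors with their co-chaperones. The models of these genes were found by name, as those that carry the symbol or the bovine protein entry name of a member, and 31 of the 41 were found among the 25968 gene models of the table. Each of the 31 names stood on 1 model. HSPB11, DNAJB9, DNAJC7, TCP1, CCT5, HSPA5, HSF2, BAG1, BAG3 and HSPBP1 were not matched by name and were not analysed here, so BiP (HSPA5) and 2 of the 8 CCT subunits are absent from every value that follows.

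The Holstein library was made from the pooled tail vein blood of 40 cows and the Jersey library from that of 7 cows, both taurine (Bos taurus) breeds kept in Wisconsin. The Cholistani library was made from 45 cows of this indicine (Bos indicus) breed on a farm in Punjab, Pakistan, and its RNA was the only one shipped in a dry storage matrix. The cows' ages were not given in the sources used here. Each breed is 1 library of polyadenylated RNA from washed white blood cells, so breed, farm, climate, feeding and RNA transport cannot be told apart. With 1 library per breed no test, p-value or standard error exists for any difference below, and genes are called higher or lower only as a description of these 3 libraries.

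Chaperones bind proteins that are not yet folded or have lost their fold. HSP40 proteins (the DNAJ family) hand clients to HSP70 and trigger its ATP hydrolysis, exchange factors reset HSP70, and HSP90 completes the folding of kinases, receptors and other signalling proteins. The barrel-shaped chaperonins, HSP60 in mitochondria and CCT in the cytosol, enclose a client, and small heat shock proteins hold unfolding proteins without using ATP. Heat activates the transcription factor HSF1, which drives the inducible members of each family. In leukocytes these proteins serve protein synthesis, cytoskeletal folding and the maturation of surface receptors also without heat.

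Levels are given in FPKM, fragments scaled by transcript length and by the size of the library, with the upper-quartile scaling that the authors applied. FPKM is per length, so genes can be compared with each other within a library. The number of fragments behind a gene's value is unknown, so no counting interval was computed. Folds were taken as the log2 ratio of FPKM + 1, and a difference of at least 2-fold was counted as called. The libraries' FPKM totals were unequal, 5949770 for Holstein, 6288100 for Jersey and 9518430 for Cholistani, over models with an estimate in all 3 libraries. Over the 15284 models above 0 FPKM in any library, the median log2 fold of Cholistani over Holstein was 0.15 as deposited and -0.43 when the 3 libraries were rescaled to their mean sum, and that of Cholistani over Jersey was 0.12 and -0.41. For some genes and classes, directions below are therefore also given relative to the median of all models. These relative values depend less on the scale, but they still change with it. The relative median of the 31 genes over Holstein was 0.28 as deposited and 0.18 after rescaling, and over Jersey 0.29 and 0.23. Over Holstein, HSPD1 and HSP90B1 moved from above the median of all models to below it.

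The markers of the labelled tissue were present in every library. Of 2 pan-leukocyte markers found of 4, the summed level was 11652 FPKM in Holstein against 11157 in Jersey and 20594 in Cholistani. Marker levels of blood cell types differed between the libraries as deposited. In the same order, 3 of 4 neutrophil markers summed to 700.4, 539 and 2593 FPKM, and 2 of 4 cytotoxic cell markers to 975, 721 and 2980 FPKM. The sums were 4662, 4651 and 9757 FPKM for 4 of 7 T cell markers, 6246, 7671 and 16017 for 2 of 5 B cell markers, and 635, 442 and 851 for 2 of 4 monocyte markers. When the libraries were rescaled, the median log2 fold of Cholistani over Holstein was 0.91 for neutrophil and 1.08 for cytotoxic cell markers. It was 0.47 for B cell, -0.06 for T cell and -0.25 for monocyte markers. Among 3 of 5 platelet markers the sums were 1031, 772 and 308 FPKM, of which CLU, a gene of other cells too, gave 941, 668 and 118, while GP9 went the other way with 84.5, 104 and 190 FPKM and GP1BA was listed at 0 in Jersey and Cholistani. Among 2 of 4 red cell markers the sums were 536, 363 and 32.3 FPKM, with AHSP listed at 0 in all 3. The part of cell composition in the chaperone values was not tested, and in bulk RNA fewer cells of a type and less RNA per cell cannot be told apart.

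All 31 chaperone genes were above 0 FPKM in every library, and 28 of them lay above the median of the detected models in each library (91.6 FPKM in Holstein against 89.6 in Jersey and 93.8 in Cholistani). The 31 genes together accounted for 0.401% of all FPKM in Holstein, for 0.383% in Jersey and for 0.387% in Cholistani, nearly the same share in each library although their summed level was 23866, 24070 and 36806 FPKM. Expression was concentrated in 4 cytosolic genes, HSPA8, HSPB1, HSP90AB1 and HSP90AA1, which made up 54.6% of the chaperone FPKM in Holstein against 55.3% in Jersey and 60.2% in Cholistani. Only 5 genes, these 4 and HSP90B1, had at least 1000 FPKM in every library, and 3 genes, HSPB6, HSPB8 and DNAJB4, stayed under 50 FPKM in all 3.

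**Figure D1:**
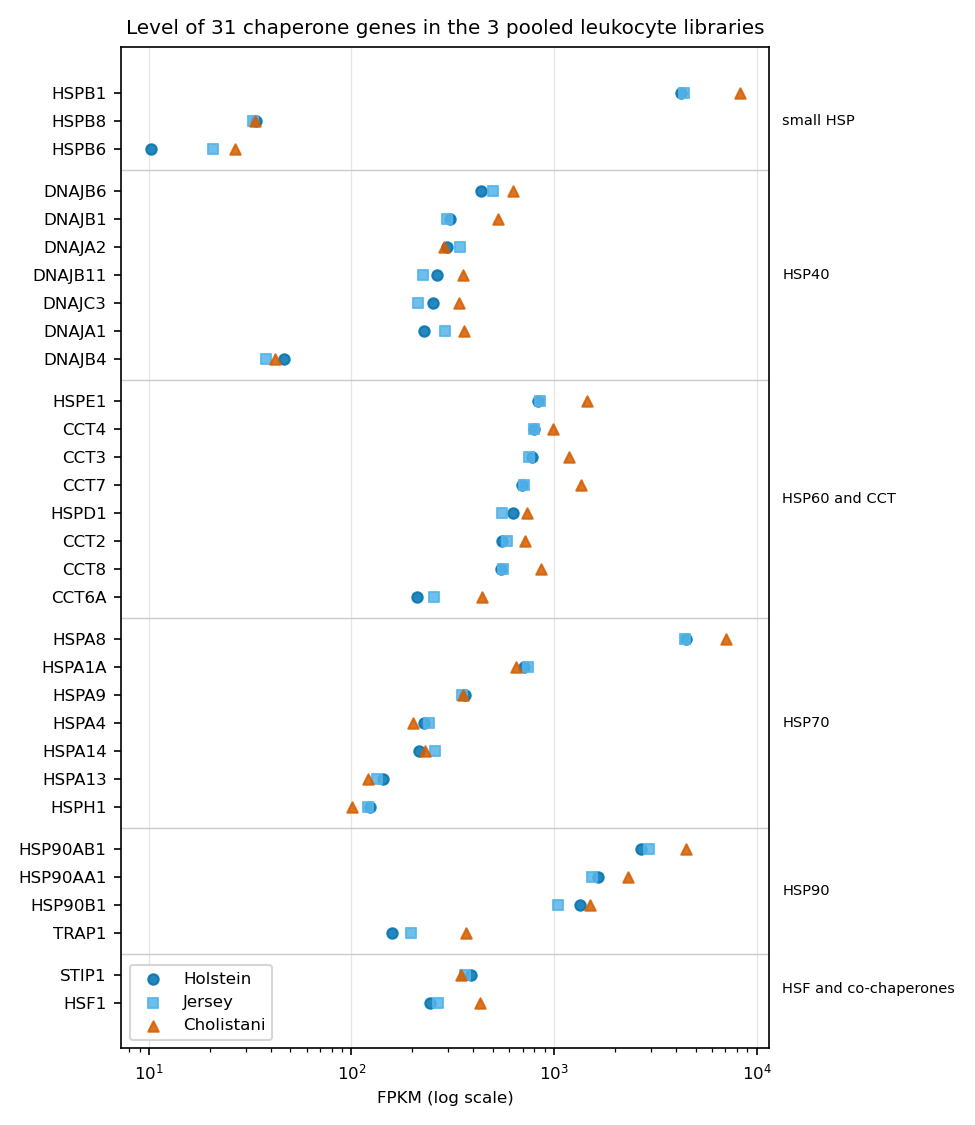
Level of each of the 31 chaperone genes in FPKM (log scale), by class, with a circle for the Holstein pool, a square for the Jersey pool and a triangle for the Cholistani pool. As deposited, the Cholistani point lies to the right of both taurine points for 21 genes and to the left of both for 6 genes, and for 8 and 16 genes after rescaling to equal sums.

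The order of the 31 genes by level was nearly the same in the taurine libraries (Spearman's rho 0.981 across genes, which are not replicates) and somewhat less so between Cholistani and Holstein (0.929) or Jersey (0.938). HSPA8 ranked first and HSPB1 second among the chaperones in both taurine libraries, and HSPB1 first and HSPA8 second in Cholistani. TRAP1 stood 26th in both taurine libraries and 18th in Cholistani, and CCT6A 25th in Holstein against 22nd in Jersey and 16th in Cholistani. Among the genes that ranked lower in Cholistani, STIP1 stood 15th in both taurine libraries and 22nd in Cholistani, DNAJA2 18th in Holstein, 17th in Jersey and 24th in Cholistani, and HSPA1A 9th, 9th and 13th.

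Between the taurine libraries the chaperone genes differed little. None of the 31 was past 2-fold in either direction in Jersey over Holstein, where 7.99% of all models were called higher and 4.70% lower. The median log2 fold of the 31 was 0.03, against 0.00 for all models, and 16 of them differed by less than 0.1 on the log2 scale. The share of all models within 0.1 was not counted, but their quartiles were -0.18 and 0.24, so many other models differed little too. The widest difference was that of HSPB6, the least abundant chaperone, at 10.2 FPKM in Holstein and 20.6 in Jersey (a fold of 1.93 in FPKM + 1). Leaving out HSPB6, the largest taurine difference was 1.28-fold, in HSP90B1.

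In Cholistani over Holstein, 3 of the 31 genes (9.68%) were called higher and 0 lower, while 19.7% of all models were called higher and 13.7% lower. The 3 genes were HSPB6 (a log2 fold of 1.31), TRAP1 (1.20) and CCT6A (1.06). HSPB1 with 0.97 and CCT7 with 0.96 fell just short of the threshold. After rescaling to equal sums 0 of the 31 were called in either direction, against 11.6% of all models higher and 27.5% lower. In Cholistani over Jersey 0 genes were called higher and 0 lower, while 17.2% of all models were called higher and 14.2% lower. The share of chaperones past 2-fold was thus below that of all models in each comparison, a difference for which no test was run. With a limit of 10 FPKM in 1 or more libraries, the shares of all models between Cholistani and Holstein were 19.2% and 12.3%.

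Below the 2-fold threshold the Cholistani levels leaned upwards. In 21 of the 31 genes (67.7%) the Cholistani value was above both taurine values, against 50.2% of all models, and in 6 genes (19.4%) it was below both, against 32.7%. These positions depend on the scale, since after rescaling 8 genes (25.8%) were above both, against 24.0% of all models, and 16 (51.6%) below both, against 59.2%. The median log2 fold of the 31 genes was 0.43 over Holstein and 0.41 over Jersey, and -0.25 and -0.18 after rescaling. The 7459 models with at least 100 FPKM in 1 or more libraries had medians of 0.32 and 0.29, or -0.34 and -0.30 after rescaling. A high Cholistani value alone can bring a model into that set, so it is not matched to the chaperones in level. The Holstein and Jersey comparisons share the Cholistani library, so they are not separate evidence. Relative to the median of all models, 21 of 31 genes were higher over Holstein as deposited and 19 after rescaling, and over Jersey 22 and 21.

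**Figure D2:**
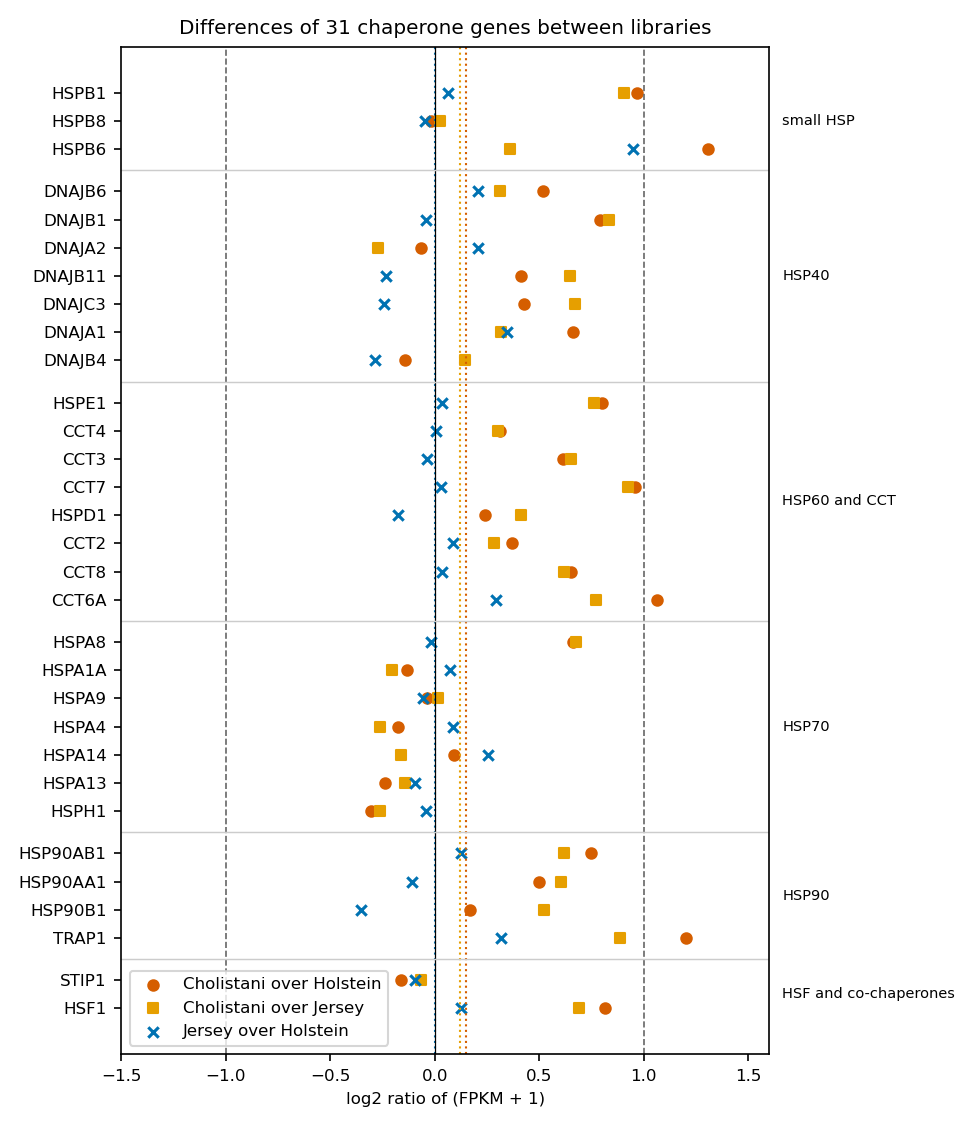
Log2 ratio of FPKM + 1 for the 31 chaperone genes between Cholistani and Holstein (circles), Cholistani and Jersey (squares), and Jersey and Holstein (crosses), with the 2-fold limits dashed and the medians of all 15284 models dotted in the colour of each comparison. As deposited the chaperonin and HSP90 genes lie right of the Cholistani medians and all HSP70 genes except HSPA8 left of them; after rescaling HSPD1 and HSP90B1 move to the left of the median over Holstein.

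Among the small heat shock proteins, HSPB1 (HSP27), which binds unfolding proteins and actin filaments, was by far the most abundant. HSPB1, which lies on chromosome 25 from 36498022 to 36499553 of the btau4.0 build, stood at 4220 FPKM in Holstein against 4407 in Jersey and 8260 in Cholistani, where it ranked 168th of all models. The taurine values differed by 1.04-fold, and the Cholistani value was 1.96-fold the Holstein and 1.87-fold the Jersey value. Relative to the median of all models HSPB1 was higher by 0.82 on the log2 scale over Holstein and by 0.78 over Jersey, and by 0.72 over each after rescaling. HSPB6, known best from muscle, was at 10.2 FPKM in Holstein, at 20.6 in Jersey and at 26.8 in Cholistani, the lowest level of all members in each library. Its order put Jersey closer to Cholistani than to Holstein, after rescaling the Cholistani value lay between the taurine values, and its call over Holstein was lost with a pseudocount of 10 FPKM (a log2 fold of 0.86). HSPB8, which works with BAG3 in the autophagy of misfolded proteins, had 33.8, 32.7 and 33.3 FPKM, close to each other as deposited. After rescaling the log2 fold of Cholistani was -0.68 over Holstein and -0.55 over Jersey. Relative to the median of all models HSPB8 was then at -0.25 and -0.14. HSPB1 thus held nearly all small heat shock protein expression in these cells, and the class made up 17.9% of the chaperone FPKM in Holstein against 18.5% in Jersey and 22.6% in Cholistani.

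The HSP40 class held 7 measured genes of moderate level, and 0 were past 2-fold in any comparison, against the shares of all models given above. DNAJB1, the main heat-inducible HSP40 of the cytosol, had 305 FPKM in Holstein against 297 in Jersey and 529 in Cholistani. With folds of 1.73 and 1.78 it was the HSP40 gene with the largest Cholistani difference from each taurine library. DNAJB6, which keeps polyglutamine proteins from aggregating, was the most abundant HSP40 gene, with 435, 503 and 624 FPKM. DNAJA1, a cytosolic HSP70 partner, had 227, 289 and 359 FPKM, so its Jersey value lay between the others. Its listed span on chromosome 8 is shared with SMU1, a splicing factor gene with 302, 281 and 253 FPKM, and the division of fragments between models of a shared span is uncertain. Its paralog DNAJA2 had 298, 344 and 285 FPKM, highest in Jersey and lowest in Cholistani. DNAJB4, another heat-inducible cytosolic member, was low throughout, with 46.5, 37.9 and 42.0 FPKM. As deposited, DNAJB1, DNAJB6 and DNAJA1 were above both taurine libraries in Cholistani, but after rescaling DNAJB1 alone of these 3 was.

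The HSP40 genes of the endoplasmic reticulum shared 1 order of the libraries, with Cholistani highest as deposited and Holstein highest after rescaling. DNAJB11 (ERdj3), which brings newly made proteins to BiP, had 266 FPKM in Holstein against 226 in Jersey and 354 in Cholistani. DNAJC3 (p58IPK), another BiP partner that is induced when unfolded proteins accumulate in this compartment, had 252, 213 and 339 FPKM. Both were lowest in Jersey on either scale, and their ratio was nearly constant, with 0.947 units of DNAJC3 per unit of DNAJB11 in Holstein against 0.941 in Jersey and 0.957 in Cholistani. HSP90B1 (GRP94), the HSP90 of the endoplasmic reticulum that folds Toll-like receptors and integrins, had 1342, 1052 and 1510 FPKM, lowest in Jersey as deposited but in Cholistani after rescaling. HSPA13, a less studied HSP70 of the same membranes, had 143, 133 and 121 FPKM and so did not share this order. All 4 measured members of this compartment were lower in Jersey than in Holstein, by 0.09 to 0.35 on the log2 scale. Each difference was under 2-fold, and the 4 stayed lower after rescaling. For all models the median log2 fold of Jersey over Holstein was 0.00 and the lower quartile -0.18. HSPA13 (-0.09) lay above that quartile, and HSP90B1 (-0.35), DNAJC3 (-0.24) and DNAJB11 (-0.23) lay below it. The share of all models lower in Jersey was not counted.

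All 8 measured chaperonin genes had a higher level in Cholistani than in both taurine libraries as deposited. They also lay above the median of all models over Holstein and over Jersey, with a median log2 fold of 0.63 in each comparison. After rescaling 3 of 8 stayed above Holstein and 5 of 8 above Jersey in level, and relative to the median of all models 7 and 8 were higher. CCT, whose barrel folds actin and tubulin, was measured by 6 of its 8 subunits. CCT7 had 697 FPKM in Holstein against 712 in Jersey and 1354 in Cholistani, the largest Cholistani difference from Jersey of any member (a fold of 1.90). CCT3 had 776, 756 and 1187 FPKM, and CCT8 had 547, 561 and 861 FPKM. These 3 subunits differed by less than 1.03-fold between the taurine libraries and by over 1.5-fold between Cholistani and either of them. After rescaling CCT7 stayed above both taurine values, while CCT3 and CCT8 lay between them.

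The other 3 subunits were less alike. CCT4 had 793 FPKM in Holstein against 796 in Jersey and 983 in Cholistani. CCT2 had 553, 587 and 715 FPKM, and both CCT4 and CCT2 fell below the taurine values after rescaling. CCT6A, located on chromosome 25 from 29552475 to 29562368, reached 210 FPKM in Holstein against 257 in Jersey and 439 in Cholistani. It was the lowest subunit in each library and had the largest Cholistani difference over Holstein of the class (2.09-fold). The 6 subunits, which enter the complex in equal numbers, spread over a 3.78-fold range of levels in Holstein against 3.10-fold in Jersey and 3.09-fold in Cholistani, with coefficients of variation of 36.4%, 32.2% and 35.6%. CCT4 was the most abundant in both taurine libraries, where the order of all 6 was the same, and CCT7 in Cholistani.

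Mitochondrial HSP60 and its lid did not keep 1 ratio. HSPD1, the chamber, had 627 FPKM in Holstein against 554 in Jersey and 739 in Cholistani. HSPE1, the lid (HSP10), had 833, 853 and 1450 FPKM. There were 0.752 units of HSPD1 per unit of HSPE1 in Holstein against 0.650 in Jersey and 0.510 in Cholistani, a ratio within each library that no rescaling changes. These genes lie head to head and share 1 listed span, chromosome 2 from 90240053 to 90252634, so the division of fragments between them is uncertain.

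**Figure D3:**
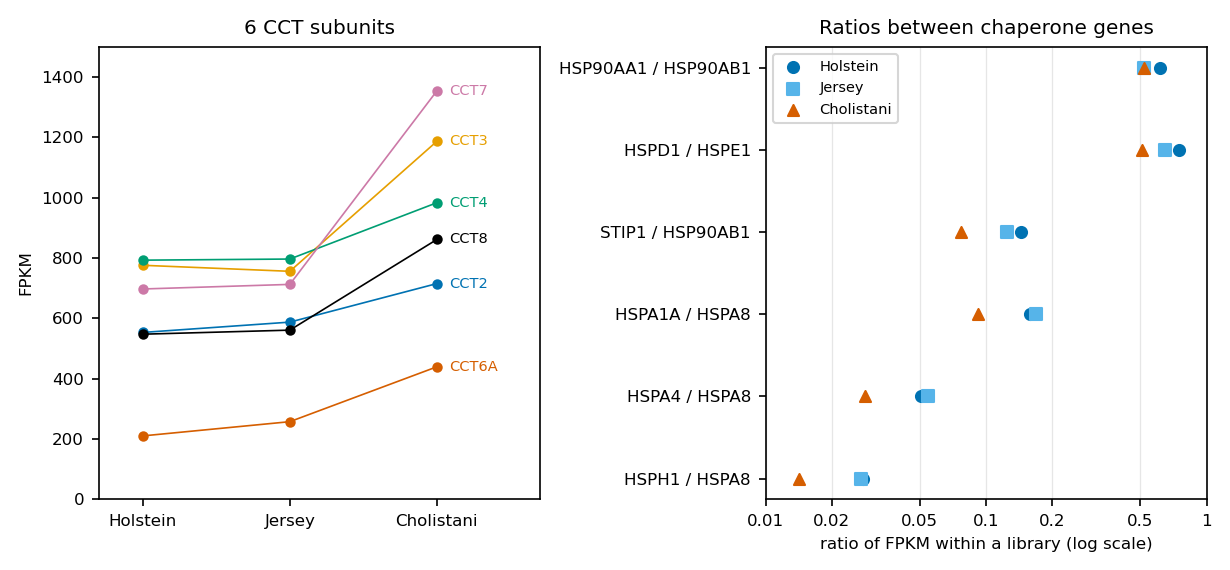
Left: FPKM of the 6 measured CCT subunits in each library, with lines joining the points of a gene; as deposited every Cholistani point lies above both taurine points, but after rescaling those of CCT6A and CCT7 alone do. Right: ratios of FPKM between pairs of chaperone genes within each library (log scale), which do not depend on the scale; the HSPA1A to HSPA8 ratio was 0.158 in Holstein against 0.169 in Jersey and 0.0915 in Cholistani.

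The HSP70 genes stood apart from the chaperonins. Of 7 genes, HSPA8 alone was above the median of all models over Holstein and over Jersey, with or without rescaling. HSPA8 (HSC70), the constitutive HSP70 of the cytosol, had 4485 FPKM in Holstein against 4430 in Jersey and 7083 in Cholistani (1.58-fold over Holstein). After rescaling the HSPA8 value of Cholistani lay between the taurine values. The gene lies on chromosome 15 from 32348141 to 32353378, and the 3 small RNA models named SNORD14 within its span were listed at 0. HSPA1A, the classical heat-inducible HSP70, had 711, 748 and 648 FPKM, on chromosome 23 from 27311564 to 27313489. Reads of HSPA1A and of its near-identical copy HSPA1B may not be separated by alignment, so the value may hold both. HSPA1A was lower in Cholistani, with a log2 fold of -0.13 over Holstein and -0.21 over Jersey as deposited, and -0.81 and -0.80 after rescaling. Relative to the median of all models HSPA1A was at -0.28 and -0.33 as deposited, and at -0.38 and -0.39 after rescaling. Its ratio to HSPA8 was 0.158 in Holstein against 0.169 in Jersey and 0.0915 in Cholistani.

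HSPH1 and HSPA4, the exchange factors among the measured HSP70 genes, were likewise no higher in Cholistani. HSPH1 (HSP105), which is also heat-inducible, had 124 FPKM in Holstein against 120 in Jersey and 100.1 in Cholistani, the largest shortfall over Holstein of any member (a log2 fold of -0.31). HSPA4 had 227, 241 and 201 FPKM. Per unit of HSPA8 there were 0.0276 units of HSPH1 in Holstein against 0.0271 in Jersey and 0.0141 in Cholistani, and 0.0507, 0.0544 and 0.0284 units of HSPA4. HSPA14, which acts at the ribosome, had 216, 259 and 231 FPKM, highest in Jersey. HSPA9 (mortalin), which pulls proteins into mitochondria, had 365, 351 and 355 FPKM, within 1.04-fold of each other. As deposited HSPA1A, HSPA4, HSPA13 and HSPH1 were below both taurine values in Cholistani, and after rescaling HSPA9 and HSPA14 joined them.

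All 4 HSP90 genes were higher in Cholistani than in both taurine libraries as deposited, and after rescaling 2 of 4 stayed above Holstein and 3 of 4 above Jersey. HSP90AB1, the constitutive cytosolic form, had 2684 FPKM in Holstein against 2932 in Jersey and 4501 in Cholistani. HSP90AA1, its heat-inducible paralog, had 1650.4, 1532 and 2332 FPKM. The ratio of the inducible to the constitutive form was 0.615 in Holstein against 0.522 in Jersey and 0.518 in Cholistani, so it was highest in Holstein. TRAP1, the mitochondrial HSP90, had 158 FPKM in Holstein against 197 in Jersey and 366 in Cholistani, 2.30-fold and 1.85-fold over the taurine libraries. Relative to HSPA9, the HSP70 of mitochondria, TRAP1 was at 0.435, 0.563 and 1.03 units. TRAP1 shares its listed span on chromosome 25, from 3564711 to 3616840, with the nuclease gene DNASE1, whose model had 149, 122 and 80.4 FPKM in the opposite order. The division of fragments between them is uncertain, and with it the TRAP1 level and its ratio to HSPA9.

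HSF1, the transcription factor that heat activates, had 245 FPKM in Holstein against 267 in Jersey and 431 in Cholistani. This was 1.76-fold over Holstein and 1.61-fold over Jersey, and HSF1 stayed above both after rescaling. HSF1 is controlled mainly at the protein level, and its mRNA does not report its activity. Its span on chromosome 14 is shared with another model, known only by a protein accession, that had 159, 233 and 426 FPKM, and the division of fragments between them is uncertain. STIP1 (HOP), which hands clients from HSP70 to HSP90, had 388, 363 and 347 FPKM, lowest in Cholistani. Per unit of HSP90AB1 there were 0.145 units of STIP1 in Holstein against 0.124 in Jersey and 0.0772 in Cholistani.

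The genes known as heat-inducible did not share 1 direction. The 10 such genes measured were HSPB1, DNAJA1, DNAJB1, DNAJB4, HSPD1, HSPE1, HSPA1A, HSPH1, HSP90AA1 and STIP1, a grouping made from general knowledge after the values were seen. Of these, 6 had a higher and 4 a lower Cholistani than Holstein value. The shares of all models higher and lower at any size were not counted on either scale. In either direction 0 of the 10 passed 2-fold, against 19.7% of all models higher and 13.7% lower. Their median log2 fold was 0.37, against 0.43 for the other 21 members and 0.15 for all models. After rescaling 3 were higher and 7 lower, with medians of -0.31 for the heat-inducible genes and -0.25 for the others. The median of all models was then -0.43, below both. HSPB1, DNAJB1 and HSPE1 stayed higher in Cholistani than in Holstein on either scale. The 4 lower ones, HSPA1A, HSPH1, STIP1 and DNAJB4, stayed lower on either scale.

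Folding genes outside the set were counted from 6 further lists, of which 55 of 78 genes were found and 49 were above 0 FPKM in any library. Of these 49, 4 lay at least 2-fold above Holstein in the Cholistani library and 3 at least 2-fold below it, against 19.7% and 13.7% of all models. After rescaling these counts were 0 and 7, against 11.6% and 27.5% of all models. The median log2 fold was 0.36, or -0.31 after rescaling, against 0.15 and -0.43 for all models. Among 8 HSP90 co-chaperones 0 passed 2-fold over Holstein. PTGES3 (p23), which stabilizes the closed form of HSP90, had 773 FPKM in Holstein against 899 in Jersey and 955 in Cholistani. NUDC, a dynein-associated co-chaperone, had 605, 669 and 1028 FPKM. The scaffold gene SUGT1 had 182, 199.8 and 289 FPKM, and the immunophilin gene FKBP4 had 285, 299.99 and 415 FPKM. All 4 were highest in Cholistani as deposited, unlike STIP1, but after rescaling PTGES3, FKBP4 and SUGT1 were lowest there and NUDC stayed highest.

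In the prefoldin list, which holds 5 measured subunits of this complex that passes actin and tubulin to CCT and the phosducin-like gene PDCL3, 2 of 6 genes were past 2-fold higher over Holstein and 0 lower, against 19.7% and 13.7% of all models. PFDN1 had 373 FPKM in Holstein against 420 in Jersey and 1153 in Cholistani, and PFDN4 had 209, 297 and 547 FPKM. PFDN5, the most abundant subunit in both taurine libraries, had 1252, 1387 and 1144 FPKM and PFDN6 236, 302 and 341 FPKM. As with CCT, subunits of 1 complex differed in the size of the Cholistani difference, and neither PFDN1 nor PFDN4 remained past 2-fold after rescaling.

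Of 12 measured genes of endoplasmic reticulum folding and stress, 1 was past 2-fold higher and 3 lower in Cholistani over Holstein, against 19.7% and 13.7% of all models, and 2 were higher and 1 lower over Jersey, against 17.2% and 14.2%. ATF4, a transcription factor of the integrated stress response, had 2215 FPKM in Holstein against 2433 in Jersey and 5309 in Cholistani, which was not past 2-fold over Holstein after rescaling. CALR, a lectin chaperone of glycoproteins, had 2962, 2502 and 4757 FPKM. The lower genes kept that call on either scale: SEL1L, an adaptor of protein degradation, had 161, 113 and 39.8 FPKM, and the oxidase gene ERO1L 114, 86.8 and 50.4 FPKM. ERN1, the sensor IRE1 (named after its value was seen), had 77.5, 64.5 and 38.1 FPKM. The division of fragments is uncertain for ERN1, with 9 models listed on its span of 361 kb, and for ERO1L, with 2. As among the HSP40 genes of this compartment, 9 of the 12 were lower in Jersey than in Holstein. Their median log2 fold was -0.22, against 0.00 for all models, and the share of all models lower in Jersey was not counted.

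The mitochondrial list of 7 genes had 1 gene past 2-fold higher over Holstein and 0 lower, against 19.7% and 13.7% of all models. The called gene was the protease subunit CLPP, with 159 FPKM in Holstein against 156 in Jersey and 407 in Cholistani. This call was lost after rescaling (a log2 fold of 0.68), and 12 models are listed on the 279 kb span of CLPP, so the division of fragments among them is uncertain. GRPEL1, the exchange factor of HSPA9, had 277, 274 and 486 FPKM. Its paralog GRPEL2 had 68.9, 67.7 and 38.4 FPKM, so the paralogs went in opposite directions relative to Holstein on either scale. GRPEL2 was called lower after rescaling (a log2 fold of -1.49), which made 1 of the 7 genes, against 27.5% of all models. The protease gene HTRA2 had 207, 241 and 332 FPKM. Among 13 other heat shock and J proteins above 0, 0 passed 2-fold over Holstein as deposited, against 19.7% of all models higher and 13.7% lower. After rescaling 3 were lower, HSPA2, SERPINH1 and HSPA1L (named after their values were seen), against 27.5% of all models. DNAJC1, a J protein of the endoplasmic reticulum membrane, had 140, 115 and 281 FPKM. In FPKM + 1 this was just under 2-fold over Holstein and 2.43-fold over Jersey, and under 2-fold over both after rescaling. The plain FPKM ratio over Holstein was 2.01. DNAJC8, a J protein linked to splicing, had 224, 261 and 356 FPKM. DNAJC5, the cysteine string protein of secretory vesicles, had 189, 200.4 and 249.6 FPKM, and DNAJB12 had 122, 119 and 170 FPKM. HSPB3, HSPB9, CRYAA, CRYAB, HSPA4L and HSPA12A were listed at 0 in all 3 libraries. Of 3 exchange factors, SIL1 had 54.7, 63.6 and 92.1 FPKM, BAG2 87.7, 94.97 and 73.0, and BAG5 206, 145 and 182 FPKM. Over Holstein 0 of the 3 were past 2-fold, against 19.7% of all models higher and 13.7% lower.

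**Figure D4:**
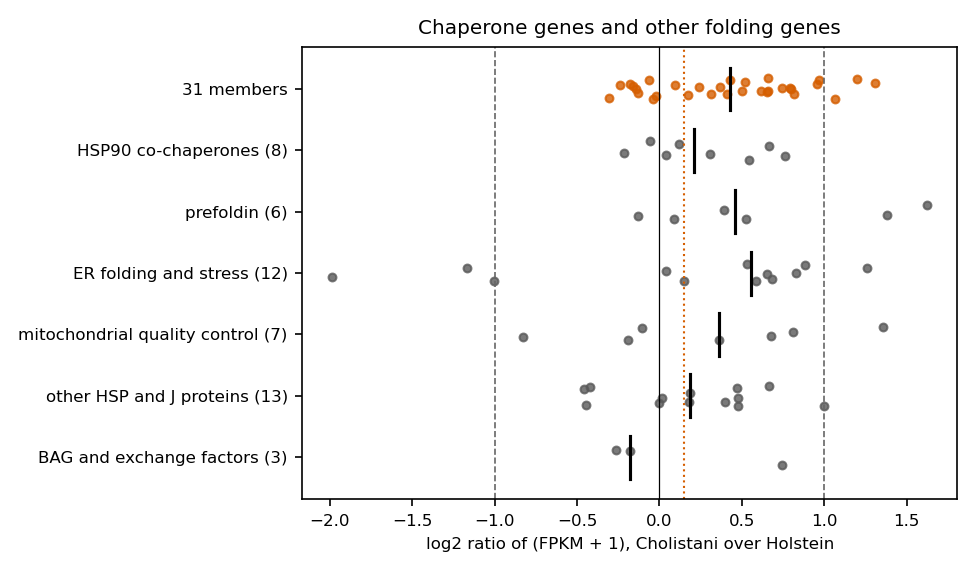
Log2 ratio of FPKM + 1 in Cholistani over Holstein for the 31 chaperone genes (coloured) and for 6 further lists of folding genes (grey), each point a gene above 0 FPKM in any library, with the list median as a bar, the 2-fold limits dashed and the median of all models dotted. The chaperone genes span -0.31 to 1.31, inside the range of the further lists (-1.99 to 1.63). After rescaling the medians of all lists lie below 0, as does that of all models (-0.43). The chaperone, prefoldin, endoplasmic reticulum and mitochondrial medians then lie above that of all models. Those of the HSP90 co-chaperones, the other heat shock and J proteins and the exchange factors lie below it.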

How the data were processed

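Blood of the cows of each breed was pooled, and the leukocyte RNA of the pool was sequenced as a single paired-end library. Alignment by the authors used TopHat v1.0.14 with Bowtie v0.12.7 on the btau4.0 genome, discarding reads with many locations but keeping those with several, and models were assembled and quantified with Cufflinks v0.9.3. The deposited values are FPKM to which the authors applied upper-quartile scaling and a correction of sequence bias, and they were used unchanged. Start positions were read as 0-based and printed 1-based. The 5 models with a missing value were left out of folds and sums.

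Members were matched by symbol or bovine protein entry name. Members and lists were chosen with earlier results of these data known. All members found are named, and of each further list the 2 most abundant genes and the 3 with the largest fold over Holstein at 50 FPKM or more. Each fold is the log2 ratio of FPKM + 1, called at 2-fold. No test was possible with 1 library per breed. Alternatives were pseudocounts of 0.1 and 10 FPKM, a minimum of 10 FPKM, FPKM rescaled to the mean sum, centred folds, other model choices and folds of 1.5 and 3. The fold step was tested on simulated data. Python 3.11.15 with pandas 2.3.3 was used. Promoter and protein sequences were not used here.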

Additional observations from a re-analysis of the deposited data

How the results depend on the processing

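Both the scale and the fold threshold moved the chaperone results. Rescaling FPKM to the mean sum of the 3 libraries left 0 genes past 2-fold in Cholistani over Holstein in place of 3. The median log2 folds became -0.25 over Holstein and -0.18 over Jersey, against -0.43 and -0.41 for all models. The log2 folds over Holstein of HSPB6, TRAP1 and CCT6A became 0.67, 0.53 and 0.39. Centring on the median of models with at least 10 FPKM in each library gave medians of 0.23 and 0.25, and CCT6A fell to 0.87. With a pseudocount of 0.1 FPKM, HSPB6 passed 2-fold in Jersey over Holstein (a log2 fold of 1.01), which made 1 gene in place of 0. With a fold of at least 1.5, 13 genes were past the threshold over Holstein, 14 in Cholistani over Jersey and 1 in Jersey over Holstein. At a fold of at least 3 there were 0 in each. The shares of all models past 1.5-fold and 3-fold were not counted. The upper quartile of the log2 folds of all models was 0.80 over Holstein and 0.71 in Cholistani over Jersey. Both lie above the 1.5-fold limit of 0.58, so many models other than chaperones passed it too. A median was taken to have moved when it shifted by 0.1 or more on the log2 scale. Summing models of a name, or keeping names on 1 model, changed no value, because each member stood on 1 model. No paired analysis was possible because each breed has 1 library and no replicate. The depth behind each gene is unknown, so HSPB6, at 10.2 FPKM in Holstein, is the least certain value.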

Other observations

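Partner genes of chaperones were set beside the members after their values were seen, as values only. HSPA14 and DNAJC2, which form a complex at the ribosome in mammals, were both highest in Jersey: as deposited, HSPA14 was at 216 FPKM in Holstein, at 259 in Jersey and at 231 in Cholistani, and DNAJC2 at 115, 135 and 129.7 FPKM in that order. After rescaling both were lowest in Cholistani. HSPA9 and its exchange factor GRPEL1 differed in pattern, since HSPA9 had 365, 351 and 355 FPKM and GRPEL1 had 277, 274 and 486 FPKM. The mitochondrial members therefore did not share 1 direction, as TRAP1 and HSPE1 were higher than both taurine libraries in Cholistani on either scale while HSPA9 was lower than in both taurine libraries after rescaling and between them as deposited.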
